A study of Mus musculus with 75 samples.

Results

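Enteroendocrine cells are the scattered hormone-secreting cells of the gut epithelium. The 10 genes followed here are 7 peptide hormone genes of these cells (Gcg, Gip, Cck, Sct, Nts, Pyy and Insl5), 2 granule proteins (Chga and Chgb) and Tph1, the enzyme that starts serotonin synthesis outside neurons. They are 10 of the 21051 gene symbols in the count table of untreated mice and mice at 2 h, and 10 of the 21076 symbols in the table of mice at 24 h. The genes were picked by name with their levels in untreated mice already known, so those levels and their differences between gut regions and layers are given as a description, with no test. Responses to LPS, and region differences in treated mice, were tested over all genes.

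The 75 libraries are Smart-seq2 RNA-seq of cells labelled as enteric glial cells (EGC), the support cells of the gut's own nervous system, from adult mice. Smart-seq2 copies and amplifies whole cDNA and carries no molecular identifiers. In untreated mice, named WT in the count table, 4 sites were sampled: the myenteric plexus, a nerve layer between the muscle coats, with 6 libraries of small intestine and 5 of colon, and the submucosal plexus, which lies just beneath the epithelium, with 6 of small intestine and 5 of colon. All untreated, 2 h and 24 h groups, controls included, carry the same green fluorescent reporter transgene. At 2 h, mice also named WT and given LPS or PBS were compared in the myenteric plexus, with 4 libraries for each region and treatment. LPS is a bacterial endotoxin, here from E. coli O111:B4, given once into the peritoneum at 2 mg/kg. PBS is the saline control. At 24 h, myenteric libraries of the genotype labelled Gpr37WT numbered 6 (PBS) and 4 (LPS) in small intestine and 4 (PBS) and 5 (LPS) in colon. Those labelled Gpr37-/- numbered 4 (PBS) and 5 (LPS) in small intestine and 5 (PBS) and 4 (LPS) in colon. Gpr37 is a G protein-coupled receptor gene of glia, and the knockout lacks it. How the cells were isolated is not given in the labels used here. No mouse is named for untreated and 2 h libraries, so p-values there measure the spread between samples that may or may not be separate animals.

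Each enteroendocrine cell stores peptide hormones in dense granules and releases them toward blood and nerve endings when nutrients reach the gut. Gcg is the precursor of glucagon-like peptides, Gip of the incretin GIP, Cck of cholecystokinin, which empties the gallbladder, and Sct of secretin, which stimulates bicarbonate release from the pancreas. Nts (neurotensin), Pyy (peptide YY) and Insl5 are typical of the lower gut, and Insl5 is a hormone of colonic L cells. Chromogranins Chga and Chgb fill the granules of endocrine cells and also those of neurons, and Cck and Nts are neuropeptides as well, so these 4 genes are not limited to epithelium. Tph1 serves the enterochromaffin cells, which make most of the body's serotonin. NEUROD1, a basic helix-loop-helix factor of endocrine cells, binds DNA at E-boxes, and factors of the cyclic AMP pathway bind the letters TGACG.

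Promoters of 3 of the genes are shown because the results below turn on them: Gcg and Cck, which were high in the submucosal small intestine, and Chga, which was present in both layers. Each sequence is the 150 bases before the RefSeq transcription start in build GRCm38.p6, read 5′ to 3′ on the gene's strand, with CAGATG (an E-box that NEUROD1 can bind) and TGACG or its reverse complement CGTCA in capitals. The windows are chr2:62483654-62483803 (minus strand), chr9:121495695-121495844 (minus strand) and chr12:102554791-102554940 (plus strand), in that order.
Gcg: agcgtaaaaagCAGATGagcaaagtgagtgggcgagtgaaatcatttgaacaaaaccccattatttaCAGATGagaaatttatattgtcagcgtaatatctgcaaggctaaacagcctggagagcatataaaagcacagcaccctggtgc
Cck: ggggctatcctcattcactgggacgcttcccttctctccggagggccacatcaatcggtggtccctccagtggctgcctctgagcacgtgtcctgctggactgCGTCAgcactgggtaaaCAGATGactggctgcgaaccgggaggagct
Chga: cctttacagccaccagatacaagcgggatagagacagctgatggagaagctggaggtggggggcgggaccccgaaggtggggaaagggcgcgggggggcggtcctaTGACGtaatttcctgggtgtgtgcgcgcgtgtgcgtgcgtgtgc

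The Gcg window holds CAGATG 139 and 83 bases before the start. In the Cck window CAGATG lies 30 bases and CGTCA 47 bases before it, and in the Chga window TGACG lies 44 bases before it. Over 250 bases and both strands, CAGATG was found in 4 of the 13 RefSeq windows of the 10 genes (those of Cck, Gcg, Insl5 and Sct) and in 14.4% of all 32851 windows of that length. TGACG was found in 6 of the 13 (Cck, Chga, Chgb, Nts and Tph1) and in 17.8% of all. The 2 motifs do not overlap in the sequences shown, and a match describes letters, not binding.

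Library totals ran from 2547296 to 9002546 counts in untreated mice, from 1990744 to 7883251 at 2 h and from 2882539 to 33283346 at 24 h. Levels are CPM, the counts-per-million of a library after TMM scaling, and 3 counts, taken as the floor of a library, were worth 0.328 to 1.11, 0.359 to 1.46 and 0.0933 to 1.09 CPM in the 3 sets. Of the 10 genes, 9 passed the filter on low counts in untreated mice (all but Insl5), 5 at 2 h (Cck, Nts, Pyy, Chga and Chgb) and 7 at 24 h (those 5, Sct and Tph1). Summed over 8 glial markers such as Sox10 and S100b, the untreated myenteric libraries held 10301 to 16010 CPM in small intestine and 6779 to 14793 CPM in colon, and the submucosal libraries 609 to 2489 and 1283 to 6811 CPM. Summed over 11 epithelial markers such as Epcam and Vil1, none of them at 0 in a whole group, the order was the other way: 2238 to 11477 CPM in submucosal small intestine, 2997 to 12164 CPM in submucosal colon, 33.5 to 455 CPM in myenteric small intestine and 19.9 to 3975 CPM in myenteric colon. All 6 immune markers were also called higher in the submucosal groups of both regions, where 43.5% (small intestine) and 21.8% (colon) of all genes were called in either direction. They summed to 1210 CPM in submucosal colon library M3, though, within the myenteric colon range of 537 to 1876 CPM. The other 4 submucosal colon libraries held 27181 to 54717 CPM. The submucosal libraries labelled as glia thus contained epithelial and immune transcripts, and the tissue label is kept below as the name of the group. At most 3 counts of Gpr37, the targeted gene, were found in 17 of 18 knockout libraries, but also in 4 of 19 labelled wild type, including both libraries of mouse 3, so the latter are called by their label.

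Gcg, Cck and Sct were the leading hormones of the submucosal plexus in the small intestine and were absent or near the floor in the myenteric plexus of the same region. Gcg ranged from 122 to 572 CPM (median 223) in the 6 submucosal libraries and was 0 in all 6 myenteric ones, so the submucosal mean of 263 ± 167 CPM (SD, n = 6) was at least 440-fold higher than the floor. Every submucosal library was above every myenteric one. Cck ranged from 9.08 to 592 CPM (median 74.8) in the submucosal libraries and from 0 to 2.62 CPM in the myenteric ones. Male libraries M1 and M3 carried 592 and 589.6 CPM of Cck, and the ratio of the group means was 448, or 2371 without myenteric M1. Sct ranged from 2.90 to 487 CPM (median 26.5) against 0 to 0.924 CPM, a ratio of means of 665. The myenteric mean rests on 6 counts in 1 library, with the other 5 at 0, so no ratio exists without it. A single submucosal library, M1, held 487 of these secretin CPM, the next highest held 59.7, and the ratio was 166 without submucosal M1.

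The same layer also held Gip, Pyy and Tph1, less evenly. Gip ranged from 1.05 to 311 CPM (median 16.0) in submucosal small intestine, with the highest value in F2, and from 0 to 2.16 CPM in the myenteric libraries. The 2 groups touched, because the lowest submucosal library, F1, lay below the highest myenteric one, M1. Pyy was 324 CPM in M1 and at most 13.8 CPM in the other 5 submucosal libraries, with M3 at 0, and its median was 8.87 CPM. Tph1 was 0 in all 6 myenteric libraries and 0.389 to 33.1 CPM (median 6.08) in the submucosal ones, a mean at least 19.6-fold higher than the floor, or 12.5-fold without M2. Apart from Pyy, the lower-gut hormones were scarce there: Insl5 had counts in 1 submucosal library (F3, 0.195 CPM) and Nts reached at most 3.58 CPM.

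The chromogranins were present in both layers, as Nts was at lower levels, with up to 14.7 CPM in the myenteric plexus. Chgb ranged from 7.37 to 973 CPM (median 240) in submucosal small intestine and from 31.3 to 190.2 CPM (median 48.9) in the myenteric plexus, a ratio of means of 4.54, or 2.83 without submucosal M3. Chga ranged from 3.29 to 206 CPM (median 38.3) and from 4.78 to 75.2 CPM (median 17.6), a ratio of 2.63 that was 1.66 without submucosal M2 and 4.04 without myenteric F1. For both genes submucosal F1 lay below the myenteric range and M2 and M3 above it. In all, 4 of the 10 genes (Gcg, Cck, Sct and Tph1) had no overlap between layers in the small intestine, where 25.5% of all genes tested had none, and the choice of the genes used this contrast. In these bulk samples, fewer cells of a type and less RNA per cell cannot be told apart.

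**Figure D1:**
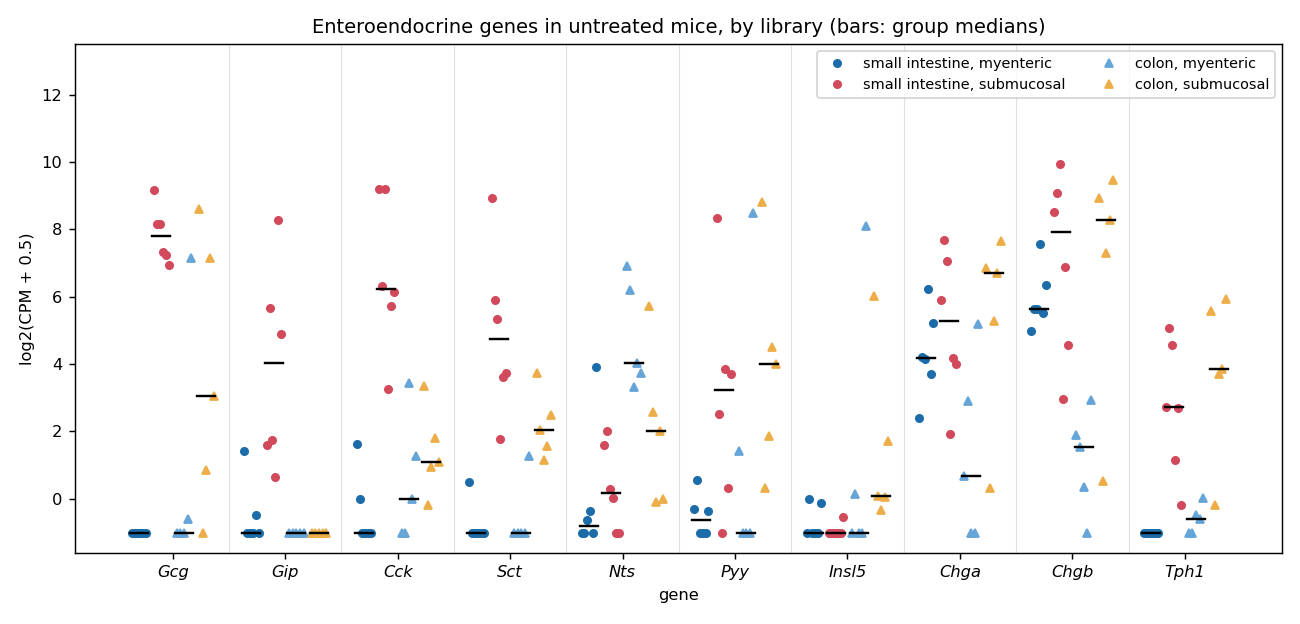
Level of the 10 genes in each untreated library, as log2(CPM + 0.5), for the myenteric and submucosal plexus of small intestine and colon; each point is 1 library and each bar a median. Gcg, Cck and Sct sit high in the submucosal small intestine, while Chga and Chgb are also present in the myenteric small intestine, where Chgb lies between 31.3 and 190.2 CPM.

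In the colon, Chgb, Chga and Tph1 were higher in 4 of 5 submucosal libraries than in most myenteric ones. Chgb was 491, 0.948, 156, 306 and 701 CPM in submucosal libraries M1, M3, F1, F2 and F3, against 3.26, 2.41, 0.766, 0 and 7.17 CPM in myenteric libraries M1, M2, M3, F2 and F3. Apart from M3, every submucosal library lay above every myenteric one, and the ratio of means was 122. Tph1 was 46.9, 0.379, 12.4, 13.9 and 61.0 CPM in the submucosal libraries and at most 0.525 CPM in the myenteric ones, a ratio of 148. Chga was 116, 0.759, 38.6, 103 and 201 CPM against 1.09, 6.94, 0, 0 and 35.8 CPM, a ratio of 10.5. Without myenteric F3 these ratios were 206 for Chgb, 282 for Tph1 and 45.7 for Chga. Submucosal M3 was thus low for all 3 genes, although its epithelial markers summed to 12164 CPM, the highest of the 11 submucosal libraries.

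The L-cell hormones of the colon were concentrated in single libraries. Submucosal Gcg was 388, 0, 1.30, 142 and 7.86 CPM, and myenteric Gcg was 0, 0, 0, 0.163 and 141 CPM. Pyy was 449, 0.759, 3.18, 22.4 and 15.5 CPM in the submucosal plexus, against 2.17, 0, 0, 0 and 355 CPM in the myenteric one. Insl5 was 65.0, 0.569, 0.289, 0.533 and 2.79 CPM in the submucosal plexus, against 0, 0.604, 0, 0 and 272 CPM. Submucosal M1 and myenteric F3 therefore carried most of these 3 hormones, and F3 also had the highest epithelial sum of the myenteric libraries, 3975 CPM. The part of that sum in the hormone values was not tested. Ratios of means were 3.81 for Gcg, 1.37 for Pyy and 0.253 for Insl5, and they rest on those libraries. Without F3, myenteric Insl5 was at most 0.604 CPM, below the submucosal mean of 13.8 CPM, so its direction turned. Without M1, submucosal Pyy was at most 22.4 CPM, below the myenteric mean of 71.5 CPM, so its direction turned as well.

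Sct, Cck and Gip were low in the colon. Sct was 12.9, 3.60, 1.73, 2.49 and 5.07 CPM in the submucosal libraries and 0 in 4 of 5 myenteric ones, with 1.92 CPM in F3. Cck was 9.61, 0.379, 1.45, 3.02 and 1.65 CPM in the submucosal plexus, against 0, 0, 10.4, 0.490 and 1.92 CPM. Gip had no count in any of the 10 colon libraries. Nts was more abundant in the myenteric layer by its means, with 119, 72.7, 9.41, 16.0 and 12.8 CPM against 52.1, 5.50, 0.434, 3.55 and 0.507 CPM, a submucosal to myenteric ratio of 0.269, or 0.0542 without submucosal M1 and 0.448 without myenteric M1. None of the 10 genes had groups without overlap in the colon, where 12.6% of all genes did. Leaving out submucosal M3 gave 3 (Chga, Chgb and Tph1), leaving out myenteric F3 gave 2 (Sct and Tph1), and leaving out submucosal M1 or F1 gave 1 each (Nts below and Sct above).

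Between regions of the submucosal plexus, Gip, Cck and Sct had lower means in the colon and Insl5, Nts and Tph1 higher ones. Gip was at least 109-fold lower in the colon, where it had no counts, and at least 28.3-fold lower without small-intestinal F2. The colon to small intestine ratio of means was 0.0139 for Cck, or 0.00699 without colon M1. It was 0.0504 for Sct, or 0.202 without small-intestinal M1 and 0.0315 without colon M1. Insl5 had 1 count in all 6 small-intestinal libraries together, against 0.289 to 65.0 CPM in the 5 colon ones. Nts was 10.1-fold and Tph1 2.29-fold higher in the colon by their means, with M1 far above the other colon libraries for Nts. Without colon M1 the ratio of Nts was 2.04, without small-intestinal M2 it was 16.4, and that of Tph1 was then 3.61. Gcg and Pyy, both L-cell hormones, had ratios of 0.41 and 1.65, with groups that overlapped, and 0.144 and 0.176 without colon M1. Without small-intestinal M1 the ratio of Pyy was 15.2. Groups did not overlap for 2 of the 10 genes, Insl5 above and Gip below, where 5.66% of all genes tested had no overlap, and Insl5 itself missed the filter on low counts. Cck joined them when colon M1 or small-intestinal F1 was left out.

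Scaled by exon length, so that levels can be set against each other between genes, the order of the means in submucosal small intestine was Cck (178 CPM per kb), Gcg (176), Sct (159) and Chgb (123). In submucosal colon it was Pyy (156), Chgb (121), Gcg (72.1) and Chga (33.3), with Pyy carried by M1. By medians the order in submucosal colon was Chgb (112), Chga (37.2), Pyy (24.5) and Sct (5.59), with Gcg at 5.26. In submucosal small intestine it was Gcg (149), Chgb (87.5), Cck (57.3) and Sct (41.1) by medians. With an SD close to or above the mean for most of these genes, the neighbours in each order do not differ beyond their spread. In the myenteric small intestine Chgb (27.1) and Chga (9.96) led, and in the myenteric colon Pyy (113) and Insl5 (75.4), both carried by F3, came before Nts (36.9).

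The mixture of the 10 genes varied among the submucosal libraries. Of all counts of the 10 genes in a library, Gcg took 80.2% in small-intestinal F1, Gip 46.6% in F2, and Chgb 47.5% with Cck 28.8% in M3. In the colon Chgb took 72.5% in F1 and 70.3% in F3. The summed counts behind these shares were 11388, 8133, 5701, 1526, 3539 and 1470 in small-intestinal M1, M2, M3, F1, F2 and F3. Colon libraries M1, F1, F2 and F3 held 4413, 1493, 3361 and 7860, and colon M3 held only 68, of which Nts was 42.6%.

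**Figure D2:**
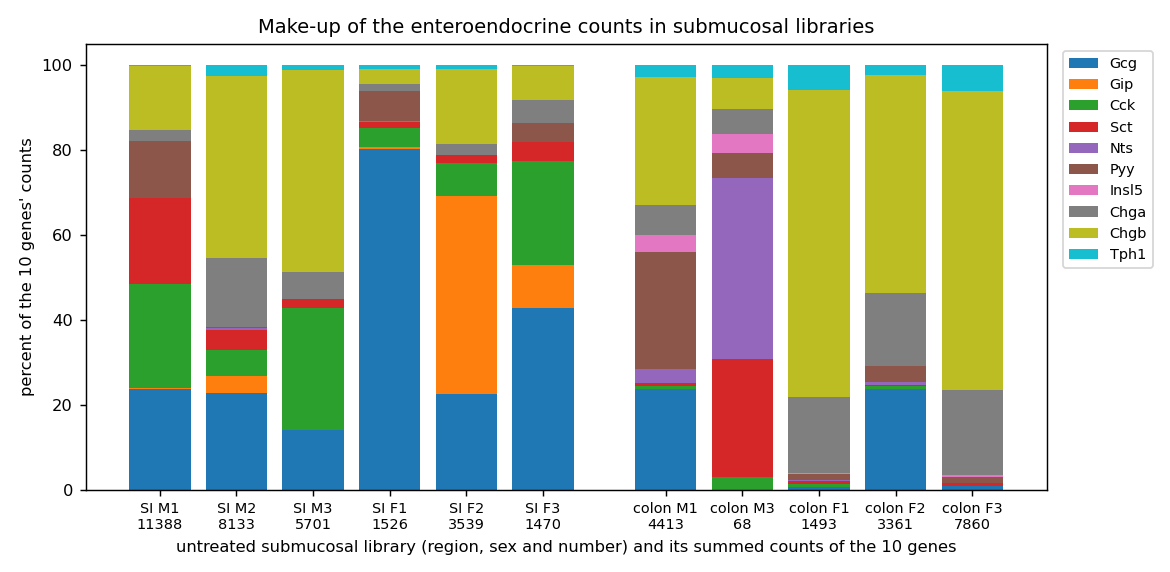
Share of each of the 10 genes among their summed counts, in percent, for each untreated submucosal library; each bar is 1 library. The largest share among small-intestinal libraries goes to different genes, with Gcg at 80.2% in F1, Gip at 46.6% in F2 and Chgb at 47.5% in M3, and Chgb fills most of colon F1 and F3.

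Across the 11 submucosal libraries, some pairs of genes moved together (Pearson's r of log2 CPM, as a description). All points share depth and the make-up of their library, and they pool both regions, whose means differ for Cck and Sct. Chga and Chgb had r = 0.97 (Spearman's rho 0.95), Chga and Tph1 0.89 (0.94), and Chgb and Tph1 0.89 (0.90). These 3 genes meet in enterochromaffin cells. Cck and Sct had r = 0.86 (0.86), and Gcg and Cck 0.76 (0.81). Other pairs did not move together: Gip and Insl5 had r = -0.46 (-0.81), Gip and Nts -0.44 (-0.39), and Cck and Pyy 0.05 (0.03). Against the summed epithelial markers of the same 11 libraries the genes' r ran only from -0.47 to 0.56. The 10 genes summed to 0.0898 to 0.365 of the epithelial sum in the small intestine (median 0.229) and to 0.00106 to 0.332 in the colon (median 0.118). The medians differed by 0.96 on the log2 scale, less than the spread of 2.46 within groups.

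Among genes outside the 10, the 9 given here as most like their mean log2 CPM across all 22 untreated libraries were Agr3 (r = 0.951), Neurod1 (0.948), Dctpp1 (0.912), Rack1 (0.908), Slc27a2 (0.897), Rpl13a (0.896), Rpl29 (0.885), Rps18 (0.885) and Rps3 (0.884). Epcam, an epithelial marker, had 0.75. Within the 11 submucosal libraries they were Agr3 (0.924), Fancm (0.907), Zfp809 (0.901), Rps27a (0.890), Neurod1 (0.870), Zfp236 (0.868), Wdr12 (0.867), Zfas1 (0.861), Nanos1 (0.858) and Dctpp1 (0.845), and Epcam had 0.098. Agr3, Neurod1 (the endocrine transcription factor) and Dctpp1 were on both lists.

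**Figure D3:**
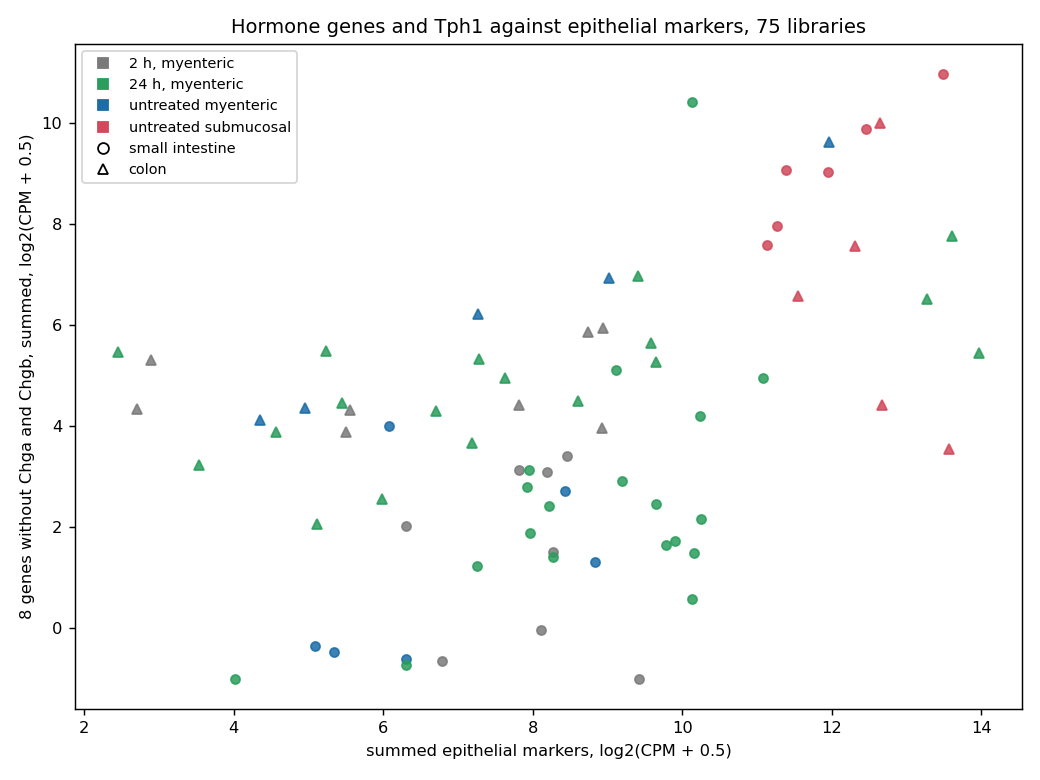
Summed level of the 8 genes other than Chga and Chgb against that of 11 epithelial markers in all 75 libraries, each as log2(summed CPM + 0.5); each point is 1 library, coloured by its set and shaped by region. Submucosal libraries lie at the right, at 2238 CPM of epithelial markers or more, together with 1 untreated and 3 24 h myenteric colon libraries, and 1 small-intestinal library from 24 h (mouse 20) is high in the genes at 1118 CPM of epithelial markers.

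Other genes of the enteroendocrine programme were tested between layers. The lists hold 14 transcription factors, 9 nutrient sensors and 16 further hormone and granule genes, and they were drawn up with earlier results of these data known. A gene at 0 in 1 layer passed the filter on low counts only through the other, so the counts below describe single genes and nothing is read from them about a list. In the small intestine, 43.5% of all genes tested were called by edgeR's quasi-likelihood test (adjusted p under 0.05). Among the 6 factors that passed the filter, Isl1, Neurog3, Neurod1 and Rfx6 rose in the submucosal libraries, and the last 3 had no count in any myenteric library. Neurod1 averaged 17.6 ± 19.8 CPM (SD, n = 6) and was 0 in all 6 myenteric libraries, at least 29.5-fold higher. Isl1 averaged 20.2 against 0.350 CPM, a log2 fold change of 5.88 ± 1.24 (SE). Neurog3, which starts the endocrine fate, averaged 5.79 CPM against 0 in all 6, at least 9.67-fold higher. Etv1, a factor also made outside the epithelium, fell by 3.01 ± 0.34 on the log2 scale, from 100.4 to 12.4 CPM.

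Of the sensors, a share near the 43.5% of all genes was called. The sensors Ffar1 and Ffar2, receptors for fatty acids, and Slc5a1, the glucose carrier SGLT1, rose, 3 of 6 tested, and Slc5a1 averaged 118 ± 124 CPM against 3.49 ± 3.88 CPM (SD, n = 6 each). Of 12 further hormone and granule genes tested, 3 rose and 7 fell. Sst (somatostatin) rose by 4.16 ± 0.63 (SE) on the log2 scale, from 14.1 ± 8.74 to 252 ± 283 CPM, and Ghrl (ghrelin) and Ddc also rose. Those that fell, Scg2, Scg3, Scg5, Pcsk1n, Pcsk2, Cpe and Resp18, are granule and peptide-processing genes that neurons and other cells also use. Cpe fell by 3.83 ± 0.39, from 984 to 69.3 CPM, and Scg2 averaged 458 CPM in the myenteric and 42.6 CPM in the submucosal plexus. Beside them, 9 of 11 neuron markers fell, and their sum was 722 to 2975 CPM in the myenteric and 61.5 to 540 CPM in the submucosal plexus. The part of neuronal RNA in the granule genes was not tested.

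Receptors for the hormones were tested in the same way. Of 10 receptor genes tested, of 18 listed, 6 fell in the submucosal small intestine (Gcgr, Cckar, Ntsr1, Npy4r, Htr3a and Htr2b), where 43.5% of all genes were called in either direction. Cckar and Npy4r had no submucosal count and passed the filter only through the myenteric group. Htr3a, a subunit of the serotonin-gated channel, averaged 87.3 CPM in the myenteric and 1.95 CPM in the submucosal plexus, a log2 fold change of -5.44 ± 1.26 (SE). Cckar, a cholecystokinin receptor, averaged 6.93 ± 10.8 CPM in the myenteric plexus and was 0 in all 6 submucosal libraries, at least 11.2-fold lower. In the colon, where 21.8% of genes were called, 4 receptors fell (Ntsr1, Npy2r, Npy4r and Htr2b). Npy2r, a receptor for peptide YY, had a mean of 14.5 ± 15.2 CPM (SD) over 5 myenteric libraries and was 0 in all 5 submucosal libraries, at least 24.0-fold lower, so it too passed the filter without a submucosal count. Ntsr1, a neurotensin receptor, fell by 6.67 ± 1.29 on the log2 scale. Fewer genes of the other lists were called in the colon: Isl1 and Slc5a1 rose, and Etv1, Scg3, Scg5 and Cpe fell, while 2 of 11 epithelial markers rose (Krt20 and Vil1).

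Between regions of the submucosal plexus, where 5.18% of genes were called, Ghrl fell by 7.78 ± 1.39 (SE) on the log2 scale in the colon, from 174 ± 265 to 1.18 ± 2.64 CPM (SD; adjusted p = 0.0018, edgeR). Its SD was above its mean in both regions, and its list was drawn up with earlier results known, so this p is a description. Sst fell by 2.21 ± 0.61 and Scg2 by 4.01 ± 1.15. Htr2b, a serotonin receptor, rose. The mean of Neurod1 was 6.03 ± 4.46 CPM (SD) over 5 colon libraries, against 17.6 ± 19.8 CPM over 6 small-intestinal ones (adjusted p = 0.638, edgeR), and that of Slc5a1 was 72.3 ± 64.2 against 118 ± 124 CPM (adjusted p = 0.803, edgeR). In the myenteric plexus, where 3.19% of genes were called, 4 granule genes were lower in the colon (Scg2, Pcsk1n, Pcsk2 and Resp18), as were Gcgr and Htr3a and 6 of 11 neuron markers.

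In the myenteric plexus itself, chromogranins marked the small intestine and neurotensin the colon. Untreated Chgb was 31.3 to 190.2 CPM (median 48.9) in the small intestine and at most 7.17 CPM in the colon, a colon to small intestine ratio of 0.0367, or 0.0217 without colon F3. Chga was 4.78 to 75.2 CPM and, in the colon, 0 to 35.8 CPM, a ratio of 0.320 that was 0.0731 without colon F3 and 0.490 without small-intestinal F1. Nts was 9.41 to 119 CPM in the colon. Of the 6 small-intestinal libraries, 5 held at most 0.282 CPM of it and F3 held 14.7 CPM. The ratio of Nts means was 18.3, or 532 without small-intestinal F3 and 11.0 without colon M1. Chgb was the 1 gene of the 10 with no overlap, where 3.14% of all genes had none, and Nts joined it when small-intestinal F3 was left out. The colon means of Gcg, Pyy and Insl5 rest on F3. Neuron markers summed to 722 to 2975 CPM in the small intestine and 152 to 401 CPM in the colon, and their part in the chromogranin difference was not tested. Across the 11 untreated myenteric libraries Chgb and the neuron marker sum had r = 0.86 (rho 0.81), a description over libraries that share region.

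The region difference was then tested in other libraries, from mice given PBS. At 2 h, Nts was 16.8, 5.43, 7.65 and 45.9 CPM in the colon of F1, M2, F3 and M4, and 0, 0, 0.200 and 0.239 CPM, or at most 2 counts, in the small intestine. Its log2 fold change was 6.91 ± 1.80 (SE; adjusted p = 0.115, edgeR). Chgb was 7.45, 2.71, 3.99 and 0.229 CPM in the colon and 170.2, 96.3, 49.7 and 209 CPM in the small intestine. Neither gene overlapped between regions, but the log2 fold change of Chgb, -5.18 ± 1.04, had an adjusted p of 0.0513 with edgeR. Chga was 38.9, 38.3, 3.33 and 8.49 CPM against 92.8, 55.5, 21.2 and 70.5 CPM, and the regions overlapped (-1.43 ± 1.14, adjusted p = 0.862, edgeR). The edgeR test called none of the 5 genes tested, where it called 0.221% of all genes and where 8.16% of all genes had no overlap. Unadjusted p was under 0.05 for 2, as for 1393 of all 13107 genes, and DESeq2 called both, Nts and Chgb. With the replicate number as a block, which also joins PBS and LPS libraries of the same number, 1 was called, Chgb (-5.48, adjusted p = 0.0239, edgeR). Without small-intestinal F3 and without the block the adjusted p of Chgb was 0.0378 (edgeR). Neuron markers summed to 147 to 722 CPM in the colon and 1191 to 4770 CPM in the small intestine. Across the 16 libraries at 2 h their sum had r = 0.87 with Chgb, 0.79 with Chga and -0.86 with Nts. These r are a description that pools both regions and treatments, so they carry the region difference, and the part of neuronal RNA was not tested.

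At 24 h the wild-type PBS mice gave the same order. Nts was 6.54, 27.9, 41.6 and 124 CPM in the colon of mice 14, 19, 22 and 24 and 0 to 2.81 CPM in the 6 small-intestinal libraries, a log2 fold change of 4.95 ± 1.21 (SE; adjusted p = 0.135, edgeR). Chga was 13.3, 6.69, 9.72 and 17.7 CPM in the colon, against 26.8 to 67.9 CPM. Chgb was 38.1, 7.94, 15.0 and 14.3 CPM against 70.9 to 219.8 CPM. None of these 3 genes overlapped between regions, where 5.99% of all genes had no overlap. The edgeR test without pairing called none of 7 genes tested (0.141% of all genes were called). Of the 7, 4 had an unadjusted p under 0.05, as did 1001 of all 14903 genes, and DESeq2 called 2, Nts and Tph1. All 4 mice with colon libraries also gave small-intestinal ones. With the mouse as a block, in a fit of only the groups compared, edgeR called 3: Nts (5.40, adjusted p = 0.0137), Chga (-1.89, adjusted p = 0.0186) and Chgb (-2.95, adjusted p = 0.00113). That fit called 369 genes in all. A fit of only the groups compared without the block also called 3, so what the pairing added cannot be told from these counts. Neuron markers summed to 509 to 2572 CPM in this colon and 1260 to 2540 CPM in this small intestine. Across the 37 libraries at 24 h, which pool regions, treatments and genotypes, their sum had r = 0.58 with Chga and 0.59 with Chgb. The part of neuronal RNA in the region difference was not tested.

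Knockout PBS mice gave Nts values of 26.0, 15.9, 4.25, 4.03 and 8.79 CPM in the colon of mice 12, 15, 1, 20 and 7, above the 0.693, 3.04, 0.777 and 0 CPM in the small intestine of mice 12, 15, 20 and 7. The log2 fold change was 3.35 ± 1.31 (SE; adjusted p = 0.526, edgeR). No other gene of the 10 was without overlap, where 1.91% of all genes were. The edgeR test called none of 7 (0.0805% of all genes), and 2 had an unadjusted p under 0.05, as did 993 of all 14903 genes. DESeq2 called none, and the mouse block called none. The log2 fold change of Chgb was -1.04 with all mice and -4.99 without mouse 20, whose colon held 156 CPM of Chgb.

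**Figure D4:**
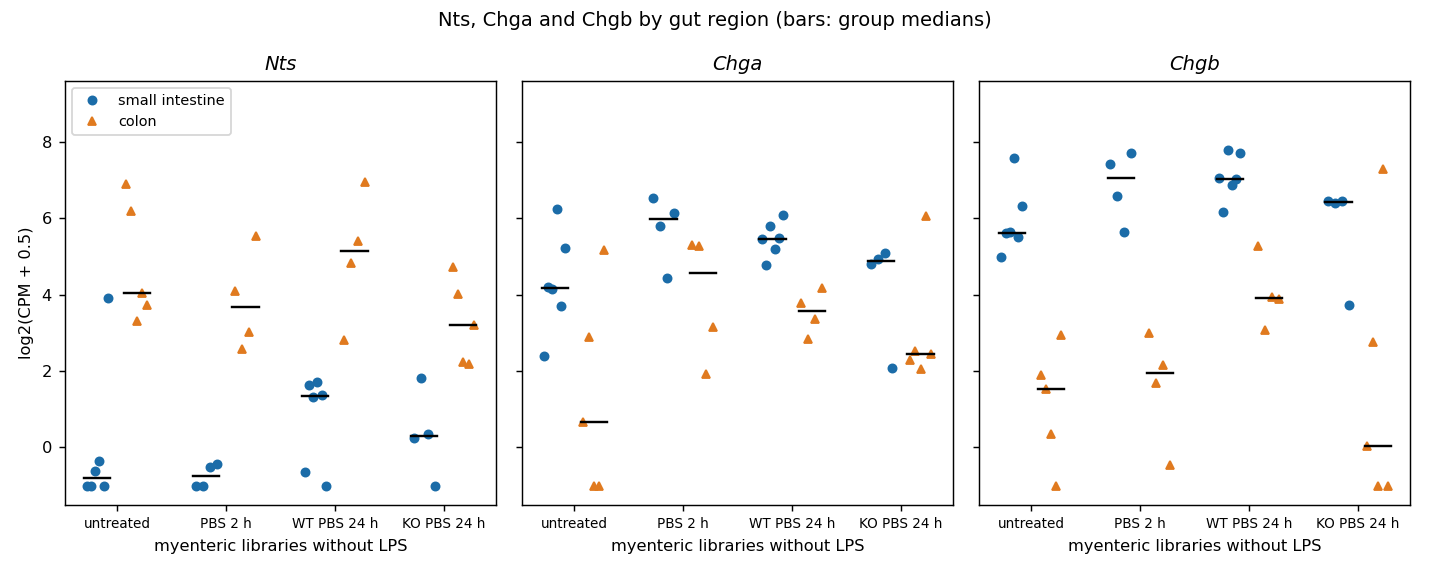
Level of Nts, Chga and Chgb in untreated and PBS myenteric libraries of small intestine and colon, as log2(CPM + 0.5); each point is 1 library and each bar a median. Nts lies higher in the colon and Chgb higher in the small intestine in each set, with untreated small-intestinal F3 (Nts 14.7 CPM) and knockout colon of mouse 20 (Chgb 156 CPM) off their groups.

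At 2 h no gene of the 10 passed the test for LPS in either region. Chgb in the small intestine was 192, 77.6, 217 and 185 CPM after LPS, against 170.2, 96.3, 49.7 and 209 CPM after PBS, and the groups overlapped (log2 fold change 0.35 ± 0.85 (SE), adjusted p = 1, edgeR). Cck was 9.92, 4.87, 6.41 and 0 CPM after PBS and 0 in all 4 LPS libraries (-7.69 ± 2.58, adjusted p = 0.42, edgeR). Sct missed the filter on low counts. It was 0.220, 2.43, 0.401 and 0.239 CPM after PBS and 0 in all 4 LPS libraries, the 1 gene of the 10 without overlap, where 5.49% of all genes had none. The PBS values of Sct lie at or near the floor apart from M2. Of the 5 genes tested in small intestine, edgeR called none (1.1% of all genes) and DESeq2 called none. An unadjusted p under 0.05 was found for 1, and for 681 of all 13107 genes.

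In the colon at 2 h, Chgb was 44.3, 0.200, 16.0 and 7.75 CPM after LPS and averaged 3.60 ± 3.01 CPM (SD, n = 4) after PBS, with overlap (2.24 ± 0.95 (SE), adjusted p = 0.57, edgeR). Without LPS F1 its log2 fold change was 1.11. Nts was 0.223, 14.0, 32.4 and 50.6 CPM after LPS, across the PBS range of 5.43 to 45.9 CPM. F1, lowest for Nts, was the highest for Chgb. The test by edgeR called none of 5 genes (0.778% of all genes), and DESeq2 called none. Of the 5, 1 had an unadjusted p under 0.05, as did 987 of all 13107 genes. The difference between regions in the LPS response was called for none (0.0% of all genes), and DESeq2 called none. There 1 gene had an unadjusted p under 0.05, as did 451 of all 13107 genes. The median log2 fold change of the 5 tested genes was 0.35 in small intestine and -0.73 in colon, against -0.02 and 0.00 over all genes.

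At 24 h in wild-type small intestine, the chromogranins of LPS and PBS libraries overlapped. Chgb was 201, 219, 166 and 72.8 CPM in mice 3, 8, 16 and 13, against 70.9 to 219.8 CPM in 6 PBS libraries (0.17 ± 1.23 (SE), adjusted p = 0.965, edgeR). Chga was 32.8, 89.5, 51.7 and 34.8 CPM against 26.8 to 67.9 CPM, with mouse 8 above the PBS range. Gcg, Gip and Insl5 had no count in either group, and Pyy had counts in mouse 8 alone (2.83 CPM). Cck reached 25.4 CPM, in LPS mouse 8, and Sct 22.5 CPM, in PBS mouse 14. The edgeR test called none of 7 (7.17% of all genes), and DESeq2 called none. None of the 7 had an unadjusted p under 0.05, against 3229 of all 14903 genes. Of 13 receptor genes tested 1 was called, a share near that of all genes: Sctr, the secretin receptor, fell. It averaged 2.21 ± 1.06 CPM (SD, n = 6) after PBS and was 0 in all 4 LPS libraries, at least 4.62-fold lower (adjusted p = 0.039, edgeR).

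In the colon labelled wild type at 24 h, the hormone-cell genes were high in 1 LPS library. Chgb was 0.728, 13.8, 734, 30.2 and 45.4 CPM in mice 13, 16, 3, 5 and 8, against 38.1, 7.94, 15.0 and 14.3 CPM after PBS (3.13 ± 1.44 (SE), adjusted p = 0.17, edgeR). Chga was 4.00, 5.75, 186, 3.41 and 21.9 CPM (1.90 ± 0.98, adjusted p = 0.225, edgeR). Tph1 was 53.7 CPM in mouse 3 and 0 in the other 4 LPS and all 4 PBS libraries (adjusted p = 0.0827, edgeR). Mouse 3 was thus the 1 library high in all 3 genes of enterochromaffin cells, and mouse 8 was the 1 highest in Pyy (18.6 CPM) and Insl5 (6.33 CPM). Epithelial markers summed to 9927 CPM in mouse 3 and 16098 CPM in mouse 8, against 11.1 to 34.1 CPM in the other 3 LPS libraries and 37.1 to 682 CPM after PBS. Without mice 3 and 8 the log2 fold change was -0.30 for Chgb and -1.40 for Chga. Nts, which was 14.2, 8.86, 17.9, 0.227 and 9.07 CPM after LPS, had a log2 fold change of -2.32 ± 1.17 (adjusted p = 0.217, edgeR) and of -1.27 without PBS mouse 24. Of 7 genes tested edgeR called none (7.96% of all genes), and 2 had an unadjusted p under 0.05, as did 3695 of all 14903 genes. DESeq2 called 1, Tph1 (adjusted p = 0.000367), whose counts all come from mouse 3.

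Among knockouts at 24 h, mouse 20 held most of the hormone counts, in both regions and under PBS. In its small intestine Gcg was 83.1, Cck 474, Sct 221 and Pyy 582 CPM, where the other 3 PBS libraries reached at most 0.592 CPM of any of these 4. This was the deepest library (33283346 counts), and 8 pancreatic markers summed to 28172 CPM in it, with Ins2 at 174, Ins1 at 46 and Ppy, pancreatic polypeptide, at 18863 counts. Its epithelial markers summed to 1118 CPM, within the 15.7 to 1214 CPM of its group. Mesothelial markers summed to 986 CPM in it and to 1810, 2144 and 18.6 CPM in mice 12, 15 and 7, and their part in the epithelial sum was not tested. Goblet cell markers summed to 2648 CPM in mouse 20, against 23.8, 16.1 and 1.85 CPM. The 3 other libraries with high pancreatic sums, named next, held 1875, 1783 and 1210 CPM of goblet cell markers. Of the 4 libraries with the highest pancreatic sums, the 3 others had few or no islet counts. Knockout LPS small intestine of mouse 17 had 55457 CPM of them, with 14 counts of Ins2 and 42 of Ppy, Pyy at 2.59 CPM and Gcg, Cck and Sct at 0. Untreated myenteric small intestine M3 had 38965 CPM, with Ins1, Ins2, Ppy and all 4 hormones at 0. Wild-type PBS colon of mouse 19 had 15065 CPM, with Cck at 10.5 CPM, Sct at 0.907 CPM, and Ins1, Ins2, Ppy, Gcg and Pyy at 0. What part pancreatic tissue had in the hormones of mouse 20 was not tested.

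With mouse 20 among the PBS libraries, the knockout LPS contrast in small intestine gave log2 fold changes of -5.60 ± 2.18 for Cck, -7.99 ± 2.51 for Sct and -8.08 ± 3.06 for Pyy (SE; adjusted p = 0.268, 0.142 and 0.265, edgeR). Without it they were 3.87, -0.12 and 5.26. In the LPS group Cck was 4.31, 0, 0, 6.74 and 1.26 CPM in mice 11, 17, 10, 6 and 21, against 0.297, 0.169, 474 and 0 CPM in PBS mice 12, 15, 20 and 7. The signs for Cck and Pyy thus rest on mouse 20. The edgeR test called none of 7 (0.718% of all genes), and 3 had an unadjusted p under 0.05, as did 1709 of all 14903 genes. DESeq2 called 1, Tph1. Of its 74 counts after PBS, mouse 20 held 72, and it had none after LPS.

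In knockout colon, PBS mouse 20 held Pyy at 169 CPM, Chgb at 156, Chga at 66.8, Tph1 at 16.7, Insl5 at 7.99 and Gcg at 7.72 CPM, and its epithelial markers summed to 12546 CPM. After LPS, Chgb was 10.2, 5.86, 117 and 3.01 CPM and Nts 31.7, 18.6, 1.34 and 49.0 CPM in mice 11, 17, 2 and 21. The highest library for Chgb, mouse 2, was the lowest for Nts. Nts had a log2 fold change of 1.11 ± 1.15 and Sct of -7.49 ± 3.30 (SE; adjusted p = 0.755 and 0.344, edgeR). Tph1 had -8.09 ± 3.50 (adjusted p = 0.342, edgeR; 0.00809 with DESeq2) and -4.53 without mouse 20. In this contrast edgeR called none of 7 (0.718% of all genes) and DESeq2 called Tph1 alone. Of the 7, 2 had an unadjusted p under 0.05, as did 1845 of all 14903 genes. Of 13 receptor genes tested 1 was called, Htr3b, a subunit of the serotonin-gated channel. It averaged 12.0 ± 20.1 CPM (SD, n = 4) after LPS, a spread above its mean, and 0.0535 CPM after PBS, with 4 of 5 libraries at 0 (log2 fold change 7.18 ± 1.64, adjusted p = 0.0229, edgeR).

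Genotype was tested last. For the LPS response, edgeR called no difference between genotypes in any of 7 genes (0.0% of all genes in either region). The largest differences were -14.0 ± 4.67 for Pyy in small intestine (SE; adjusted p = 1, edgeR) and -17.7 ± 4.90 for Tph1 in colon (adjusted p = 0.17, edgeR). Small-intestinal Pyy was highest in mouse 20, and colonic Tph1 in mice 3 and 20. An unadjusted p under 0.05 was found for 2 genes in small intestine and 4 in colon, and for 578 and 2009 of all 14903 genes. DESeq2 called none in small intestine and Tph1 in colon. Under PBS, edgeR called no difference between knockout and wild type (0.0% of all genes), and DESeq2 called none in small intestine and Tph1 in colon. In each region 2 genes had an unadjusted p under 0.05, as did 256 of all 14903 genes in small intestine and 629 in colon. Genotypes share their PBS libraries with the LPS comparisons above, so these tests are not separate evidence.

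**Figure D5:**
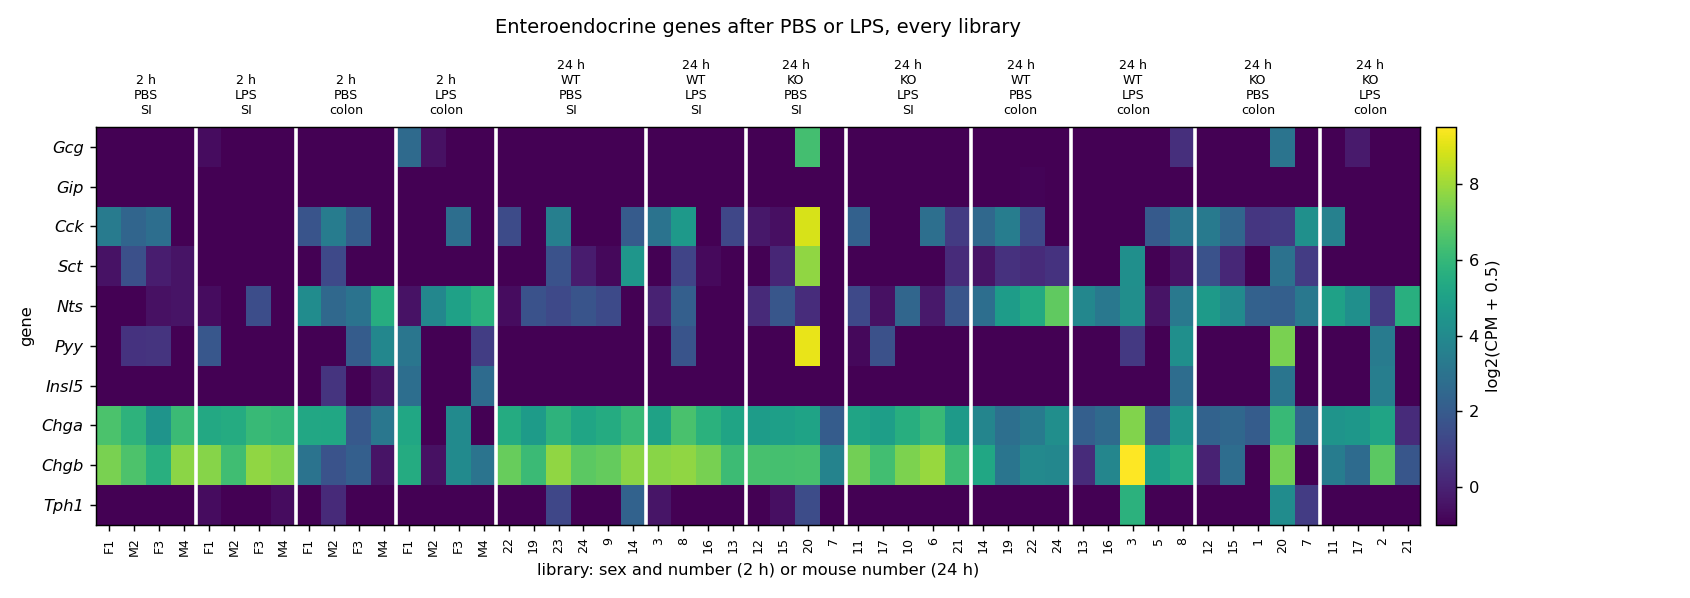
Level of the 10 genes (rows) in each PBS and LPS library of the myenteric plexus (columns, grouped by time, genotype, treatment and region), as log2(CPM + 0.5) from dark (low) to yellow (high). Chga and Chgb fill the small-intestinal columns under both treatments, Nts fills most colon columns, and mouse 20 in knockout PBS small intestine (Pyy 582 CPM) and mouse 3 in the LPS colon labelled wild type (Chgb 734 CPM) stand out.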

How the data were processed

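The authors deposited 2 tables of raw counts per gene symbol, 1 column per library, with no column left unassigned (0). Per the submitters' processing notes the tools were Trim Galore 0.4.4, STAR 2.5.3 and DESeq2, and the build GRCm38. The counter, annotation and use of strand are not given in the sources used here, so reads shared with overlapping or antisense genes could not be told apart. Counts from amplified cDNA without molecular identifiers are not independent molecules, and floors cover counting error only.

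Each set (untreated, 2 h, 24 h) was filtered with filterByExpr, leaving 14090, 13107 and 14903 genes, scaled by TMM and fitted with all its groups in 1 quasi-likelihood model (edgeR 4.0.16, R 4.3.3), two-sided. A gene was called at a Benjamini-Hochberg adjusted p under 0.05 over all genes tested. Shares of all genes called are those of edgeR, and the share called by DESeq2 is not given here. SE is the absolute log2 fold change over the square root of F. "At least" folds divide a mean CPM by the mean CPM of 3 counts over the libraries of the group at 0. Groups did not overlap where every library of 1 group lay above every library of the other. Exon lengths came from GENCODE genes of build GRCm38 and promoters from RefSeq; all 10 genes matched both. Figures used Python 3.11.15 and matplotlib 3.10.9.

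The 10 genes and all lists were chosen with earlier results of these data known. All 10 were described. From other lists at most 4 genes a comparison were named, those with the highest mean CPM among called genes, or among all where none was called. Beside these, counts name every called gene, and genes that single out a library were named after their values were seen. Likeness is Pearson's r of log2(CPM + 0.5) with the mean of the 9 tested genes. The rule names 10 genes for each set of libraries, and 1 of them is not reported here.

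Replicates of the untreated and 2 h sets share a sex and a number, which the labels do not say mark 1 animal. At 2 h the block also joined PBS and LPS libraries of the same number, from mice given different treatments. The correlation of deviations of same-numbered samples averaged 0.0979 and 0.0213 between untreated layers of small intestine and colon, 0.184 and 0.0847 between untreated submucosal and myenteric regions, and 0.0836 (lowest 0.00876) between PBS regions at 2 h, where other pairs gave -0.0276. In no comparison did every pair pass 0.1. At 24 h some mice gave both regions, by the labelled mouse number, and others gave only 1. The mouse was the block there, in fits of only the groups compared. The alternatives were DESeq2 1.42.0, RLE size factors, no filter, sex, the replicate block, only the groups compared, mouse number (10 and below against 11 and above), and each library left out. Leaving out mouse 20, or mice 3 and 8 in the colon, was added after seeing the data. The fitting script was tested on simulated data. Ratios of means in untreated mice were also computed without each library in turn, a choice made after seeing the data. They are given for many, but not all, of the printed ratios that 1 library moved by over 1.5 times.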

Additional observations from a re-analysis of the deposited data

Results flagged for a closer look

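For each of the 10 genes averaging at least 10 CPM in a group of 4 to 10 libraries, the highest or lowest library was compared with the rest by Dixon's ratio of gap to range. Of 56 such groups 23 had a library apart. Chance gives about 1 in 20 for groups not chosen by their level, but some groups here reached 10 CPM only through the library apart, such as Tph1 in the LPS colon labelled wild type, and the 10 genes share libraries, so 23 of 56 cannot be read against it. In untreated myenteric colon, F3 stood apart with Gcg at 141.3, Pyy at 355.2 and Insl5 at 272.5 CPM. In untreated myenteric small intestine, F1 did with Chgb at 190.2 CPM.

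In the submucosal colon, M1 stood apart with Nts at 52.09, Pyy at 449.2 and Insl5 at 65.02 CPM. In the submucosal small intestine, M1 did with Gcg at 572.2, Sct at 487.0 and Pyy at 324.4 CPM, and F2 with Gip at 311.2 CPM.

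At 24 h, the LPS colon of mouse 3, labelled wild type, stood apart with Chga at 186.2, Chgb at 733.6 and Tph1 at 53.75 CPM, and the knockout LPS colon of mouse 2 with Chgb at 116.8 CPM. Knockout PBS colon of mouse 20 had Pyy at 169.2, Chga at 66.79 and Chgb at 156.1 CPM. Knockout PBS small intestine of mouse 20 had Gcg at 83.1, Cck at 474.2, Sct at 221.3 and Pyy at 581.9 CPM, and mouse 7 was the lowest of that group with Chgb at 12.69 CPM.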

How the results depend on the processing

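In the 14 tested comparisons edgeR called 0 of the 5 genes tested at 2 h and 0 of the 7 at 24 h, and other settings gave calls in 7 of the 14. For region under PBS at 2 h, DESeq2 called 2, and no filter, sex as a covariate, only the groups compared and the replicate block called 1 each; leaving out single libraries gave 0 to 1. For region in wild-type PBS mice at 24 h, DESeq2 called 2, only the groups compared 3, the mouse number as a replicate block 3, and mice numbered 11 and above 1. DESeq2 called 1, Tph1, for LPS in wild-type colon, knockout small intestine and knockout colon, for LPS by genotype in colon, and for genotype under PBS in colon. The block called none of the 10 for LPS at 2 h in either region, for LPS by region, or for region in knockouts. Over all genes the calls went with the block from 449 to 246 between untreated myenteric regions and from 29 to 103 between regions at 2 h. At 24 h they went from 21 to 369 in wild type and from 12 to 5 in knockouts. The block fits at 24 h also held only the groups compared, against all groups in the main fit, so block and restriction are not separated there.

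Signs of single genes turned as follows, on the log2 scale. In wild-type small intestine Chgb was -0.309 with mouse number as a covariate, -0.267 in mice numbered 11 and above, and -0.0014 to 0.47 with single libraries left out. In wild-type colon, mice numbered 11 and above gave -1.21 for Chgb and -1.22 for Chga, leaving out mice 3 and 8 gave -0.305 and -1.40, and leaving out single libraries gave -0.43 to 2.24 for Chga. In knockout small intestine, leaving out mouse 20 gave 3.87 for Cck and 5.26 for Pyy, and single libraries left out gave -6.28 to 3.82 and -11.7 to 5.26. Genes without overlap numbered 0 to 3 between colon layers and 1 to 2 between myenteric regions. The causes were not tested, apart from the libraries named. With 1 library left out, 217 other values of single genes kept their direction and call and 1 gained a call. LPS and PBS groups at 24 h share no mouse, so no paired fit was made between them. Counts at or under 3 in many libraries and single high libraries limit the statements on LPS.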
